A study of Zea mays with 9 samples.

Results

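The genes described here are the gene models of the maize root apex whose transcript abundance after nitrate was above, and after ammonium below, that of roots kept without nitrogen. They were chosen from the RPKM values (reads per kilobase of transcript, scaled for library size with quartile normalization) of the deposited table. A Zm00001d gene model was kept when it was above 0 in all 3 conditions and reached at least 1 RPKM in one of them, and it was a member when the log2 ratio of nitrate to nitrogen-deprived roots was above 0.58 and the log2 ratio of ammonium to nitrogen-deprived roots was below -0.58. These cut-offs gave 100 members among 21280 gene models kept, in a table of 45260 identifiers. A further gene model that met the cut-offs was left out by the rule. The members therefore owe their direction in both comparisons to the choice itself, and all their ratios are given as a description.

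The samples were primary root apexes of seedlings of the inbred line B73, the reference genotype of maize. The +NO3- roots received 1 mM nitrate as its potassium salt, the +NH4+ roots 1 mM ammonium as its chloride, and the -N roots stayed in a medium without nitrogen. Per the methods, seedlings germinated for 3 days were first kept for 24 h in a solution without nitrogen, in all groups alike. The treatments followed and lasted 24 h. Each condition had 3 biological replicates, 9 libraries in all, each from a pool of 10 to 15 seedlings by the record of the series, although the methods give another pool size. The nitrogen form and its counter-ion changed together, so their effects cannot be told apart in these samples.

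Nitrate enters the root through nitrate transporters, is reduced to nitrite and then to ammonium by nitrate and nitrite reductases, and also acts as a signal that changes the expression of many genes within a short time. Ammonium enters through ammonium transporters, is bound into glutamine by glutamine synthetase without any reduction step, and acidifies the medium around the root as it is taken up. The root apex holds the meristem, where cells divide, and the zone in which they begin to elongate, and roots fed with ammonium as the sole nitrogen source often grow less than roots fed with nitrate. A gene whose value moves in opposite directions after the 2 treatments is set apart from genes that change alike after both.

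The table holds 1 pooled value per condition, taken over the 3 replicates, so the values have no SD and no comparison below carries a test or a p-value. The table gives RPKM without counts, so the number of reads behind a single value is unknown here. Whether a difference exceeds the spread between replicates cannot be stated from these values, and the study's tests across its replicates were not used to choose genes. With the same cut-off and those tests, the study reports far fewer genes with opposite changes, both directions together, than are counted here. Its clustering set apart 1 gene raised by nitrate and lowered by ammonium, which is not among the members. The counts below are therefore of genes past cut-offs, not of genes that passed a test. In tissue samples of this kind, a lower value from fewer cells that express a gene and one from less RNA per cell cannot be told apart. The summed RPKM of the whole table was 915808 in +NO3-, 929408 in +NH4+ and 885720 in -N, and at least 1 RPKM was listed for 20852, 20848 and 20324 identifiers in the same order. Of the root tip markers only the gene of the proliferating cell nuclear antigen (Zm00001d018415), a clamp of the replication machinery of dividing cells, could be matched to an identifier, and it was listed at 73.0 RPKM in +NO3-, 39.1 in +NH4+ and 78.3 in -N roots.

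The pattern was rare. Members made up 0.47% of the genes kept, where 11.5% of the genes kept were higher in +NO3- and 10.9% were lower in +NH4+ by the same cut-offs. The opposite pattern, lower after nitrate and higher after ammonium, was found for 200 genes, or 0.94% of the genes kept. Both comparisons use the same -N values, and these shares describe the 3 columns of the table without a test.

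**Figure D1:**
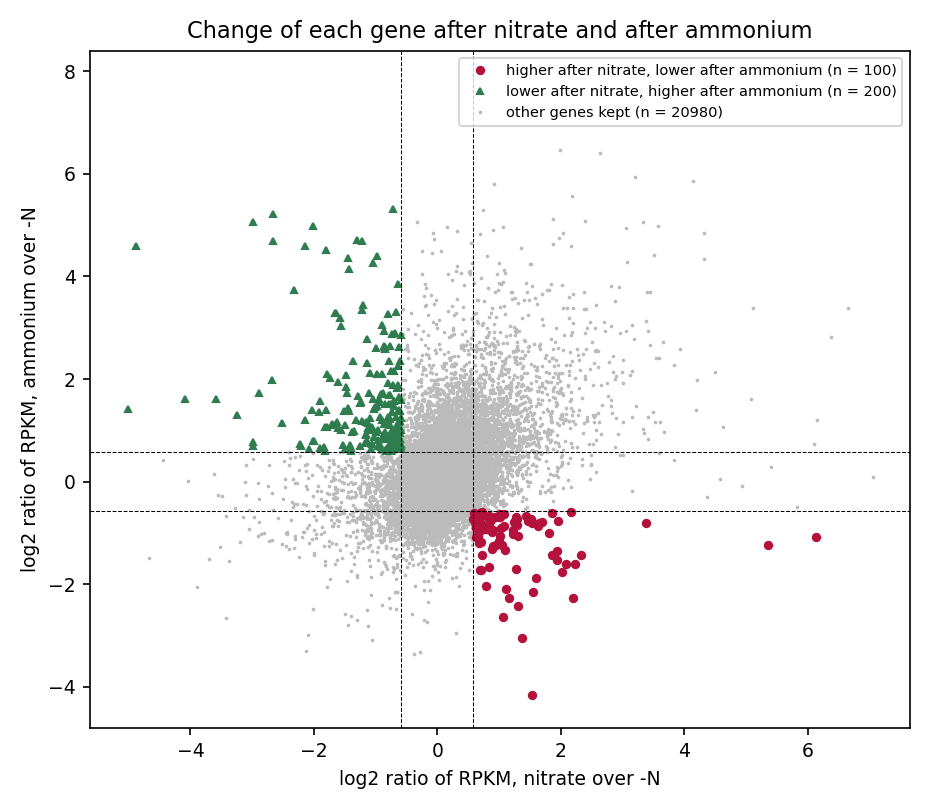
Log2 ratio of nitrate to -N (horizontal) against log2 ratio of ammonium to -N (vertical) for the 21280 gene models kept, with dashed lines at 0.58 and -0.58. The 100 members lie at the lower right, mostly close to the corner of the dashed lines, and the 200 genes of the opposite pattern at the upper left.

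Most members were weakly expressed genes with moderate changes. The members had a median of 2.83 RPKM in +NO3- (1.00 to 42.6), 0.609 RPKM in +NH4+ (0.0506 to 13.1) and 1.21 RPKM in -N (0.122 to 26.4). Over all genes kept the medians were 11.5, 11.9 and 11.1 RPKM in the same order. Summed over the 100 members the RPKM came to 551 in +NO3-, 142 in +NH4+ and 276 in -N, which was 0.0676%, 0.0169% and 0.0338% of the sum over the genes kept. The members thus form a small fraction of the root transcript pool in each condition. Only 35 members were at or above 1 RPKM in every condition, 21 were below 1 RPKM in +NH4+ alone, and 44 were at or above 1 RPKM in +NO3- alone. Of all genes kept, 90.5% were at or above 1 RPKM in every condition. The rule sets +NH4+ below -N and -N below +NO3-, so it lowers the values of the members in +NH4+ and -N by itself. By the highest value in any condition, the median was 2.83 RPKM for the members and 14.1 RPKM for all genes kept.

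The size of the change varied widely. The log2 ratio of +NO3- to -N had a median of 0.92 among the members, with quartiles of 0.69 and 1.38 and a highest value of 6.14. The log2 ratio of +NH4+ to -N had a median of -0.87, with quartiles of -1.25 and -0.75 and a lowest value of -4.15. Over all genes kept the medians were 0.04 and 0.02. Among the members, 47 were above 1 on the log2 scale after nitrate and 38 below -1 after ammonium, but only 25 passed both of these stricter limits, and 40 passed neither.

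Set against each other without -N, the +NO3- value of a member was 3.90 times its +NH4+ value in the median, with a lowest fold of 2.29 and a highest of 148.4. The fold exceeded 5 in 34 members and 10 in 16 members. The rule sets the same cut-off on both sides, so nothing on the weight of either ion is read from the counts that follow. The distance from -N to +NO3- was the larger one in 46 members and the distance from -N to +NH4+ in 54 members. In 10 members the nitrate side was at least 2 times as wide as the ammonium side on the log2 scale, in 6 members the ammonium side was at least 2 times as wide as the nitrate side, and the remaining 84 lay between.

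The member with the highest RPKM was Zm00001d000536, with 42.6 RPKM in +NO3-, 7.99 in +NH4+ and 26.4 in -N. Its distance from -N lay mainly on the ammonium side, with log2 ratios of 0.69 and -1.72. The AGPv4 annotation places this gene model on chromosome 3 from 58555716 to 58555896, a span of only 181 bases, and RPKM of so short a model rests on few read positions. A further member with a known position, Zm00001d000660, lies on the same chromosome from 182353307 to 182353607 and was listed at 2.30 RPKM in +NO3-, 0.706 in +NH4+ and 1.49 in -N.

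Zm00001d042307 was the second member in order of RPKM, with 34.9 RPKM in +NO3-, 3.58 in +NH4+ and 9.62 in -N. Its log2 ratios of 1.86 and -1.42 were both beyond 1, so that it combined a high level with a wide change in either direction. It was 9.75 times higher in +NO3- than in +NH4+ roots. Among the 10 members of highest RPKM only this gene and Zm00001d045022 had both ratios beyond 1.

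The other members of the upper range had narrower spans and resembled each other. Zm00001d020794 had 29.9 RPKM in +NO3-, 13.1 in +NH4+ and 19.9 in -N, and its log2 ratios of 0.59 and -0.61 lay close to both cut-offs. Zm00001d043242 had 23.9 RPKM in +NO3-, 9.63 in +NH4+ and 14.7 in -N. Zm00001d047329 had 22.3 RPKM in +NO3-, 7.84 in +NH4+ and 14.1 in -N. These genes changed by about the same factor on either side of -N. Zm00001d046883 had 21.4 RPKM in +NO3-, 6.50 in +NH4+ and 12.3 in -N, with log2 ratios of 0.80 and -0.92. Zm00001d015918 had 21.0 RPKM in +NO3-, 7.61 in +NH4+ and 13.3 in -N. Zm00001d023344 had 16.6 RPKM in +NO3-, 5.83 in +NH4+ and 10.3 in -N. All of them remained above 5 RPKM in each of the conditions. Zm00001d028151, at the end of the 10 highest, had 11.0 RPKM in +NO3-, 4.13 in +NH4+ and 7.09 in -N, and differed 2.66-fold between +NO3- and +NH4+. Together the 10 highest members held 43.4% of the summed RPKM of all members in +NO3-, 46.8% in +NH4+ and 46.5% in -N.

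**Figure D2:**
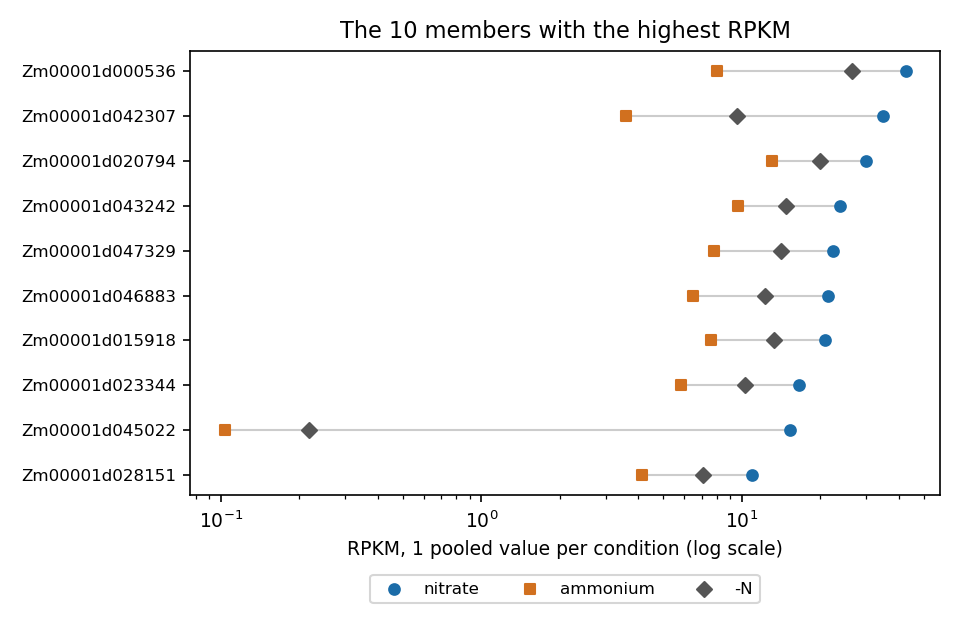
RPKM of the 10 members with the highest value, on a log axis, with 1 pooled value each for nitrate (circle), ammonium (square) and -N (diamond) joined by a line. The -N value lies near the middle of the span in most genes, whereas Zm00001d045022 has 15.3 RPKM in +NO3- and under 1 RPKM in +NH4+ and -N.

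The members with the widest span between the 2 ions were of several kinds. Zm00001d045022 was listed at 15.3 RPKM in +NO3-, 0.103 in +NH4+ and 0.217 in -N, and Zm00001d043709 at 4.99 RPKM in +NO3-, 0.0517 in +NH4+ and 0.122 in -N. Zm00001d048656 was listed at 1.31 RPKM in +NO3-, 0.0717 in +NH4+ and 0.126 in -N. In these genes transcripts were near the lower end of the table unless nitrate was given. Their log2 ratios after nitrate were 6.14, 5.35 and 3.38, while those after ammonium of -1.08, -1.24 and -0.81 compare values that are all under 0.25 RPKM.

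Zm00001d026412 stood at the other end. It was listed at 8.43 RPKM in +NO3-, 0.163 in +NH4+ and 2.90 in -N, and its log2 ratio of -4.15 after ammonium was the lowest of all members and of all genes kept. Its log2 ratio after nitrate was 1.54. Zm00001d035612, with 1.08 RPKM in +NO3-, 0.0506 in +NH4+ and 0.420 in -N, and Zm00001d040100, with 1.09 RPKM in +NO3-, 0.0825 in +NH4+ and 0.441 in -N, had the same shape at a lower level. Their log2 ratios after ammonium were -3.05 and -2.42.

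In the remaining genes of wide span, -N lay nearer the middle between the 2 ions on the log2 scale, with both ratios beyond 1. Zm00001d008005 had 8.71 RPKM in +NO3-, 0.397 in +NH4+ and 1.90 in -N. Its log2 ratios were 2.19 and -2.26, and it was the only member with both beyond 2. Zm00001d011987 had 5.98 RPKM in +NO3-, 0.421 in +NH4+ and 1.28 in -N. Zm00001d048884 had 5.67 RPKM in +NO3-, 0.410 in +NH4+ and 1.39 in -N. Zm00001d043413 had 5.98 RPKM in +NO3-, 0.442 in +NH4+ and 1.20 in -N. The last 3 genes were close to each other in level in every condition, with log2 ratios after nitrate of 2.23, 2.03 and 2.32 and after ammonium of -1.60, -1.76 and -1.44.

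**Figure D3:**
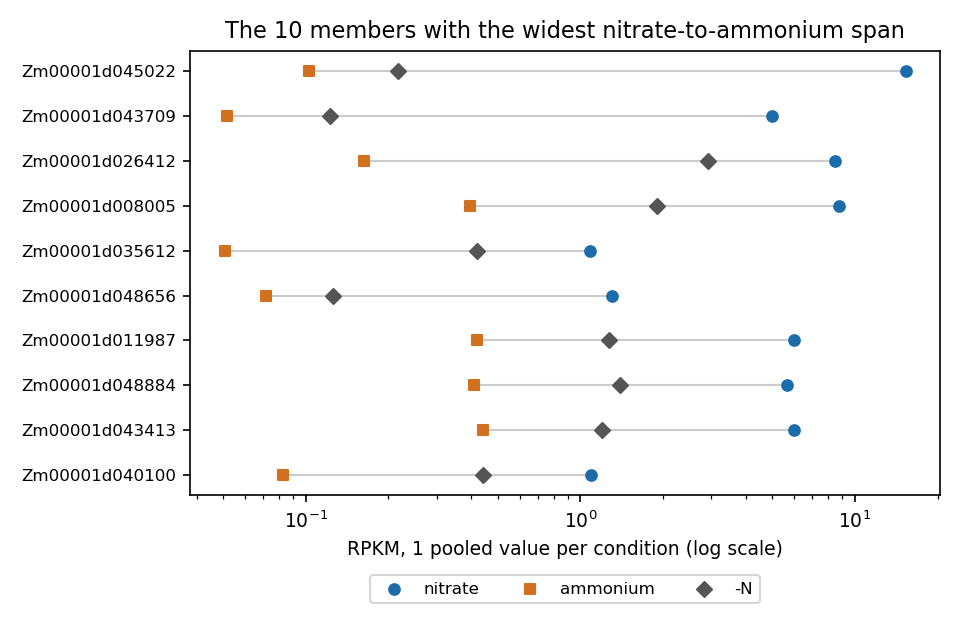
RPKM of the 10 members with the largest log2 ratio of nitrate to ammonium, on a log axis, with nitrate as circles, ammonium as squares and -N as diamonds. In Zm00001d045022, Zm00001d043709 and Zm00001d048656 the -N value lies close to the ammonium value, and in Zm00001d026412 and Zm00001d035612 it lies closer to the nitrate value.

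Of the members, only Zm00001d004443 carries a description in the gene lists that accompany the study, which name 249 gene models. It is described as a mannitol dehydrogenase, an enzyme that oxidises the sugar alcohol mannitol, and stands in the list of genes with an apoplast annotation, the space of the cell wall outside the plasma membrane. It had 2.80 RPKM in +NO3-, 0.584 in +NH4+ and 0.974 in -N roots, with log2 ratios of 1.52 and -0.74. A second gene model with the same description, Zm00001d045043, was not a member and had the reverse order, with 28.5 RPKM in +NO3-, 72.2 in +NH4+ and 50.4 in -N (log2 ratios of -0.82 and 0.52). These 2 genes thus lay on opposite sides of -N after each ion, but the ammonium ratio of Zm00001d045043 was inside the cut-offs. The ammonium ratio of Zm00001d004443 was -0.32 with a pseudocount of 1. The study places both genes in clusters that it describes as regulated by nitrate only.

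The apoplast list holds 9 genes, which the study chose on the same libraries as higher after nitrate, so their direction after nitrate is not independent evidence. All 9 were above the cut-off after nitrate (median 0.91 on the log2 scale), where 11.5% of all genes kept were. After ammonium the median was -0.07 and 5 of the 9 were below their -N value. By the cut-offs 1 gene, Zm00001d004443, was lower and 1, the dirigent protein gene Zm00001d047775, was higher after ammonium (log2 ratio 0.59), where 10.9% and 19.2% of all genes kept were. Zm00001d046357, a beta-galactosidase that removes galactose from cell wall polysaccharides, had the next lowest ratio after ammonium, with 52.4 RPKM in +NO3-, 24.6 in +NH4+ and 32.8 in -N and a log2 ratio after ammonium of -0.42.

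The list of genes for nitrogen transport and metabolism was also chosen by the study on these libraries. Of the 15 gene models in that list, 9 were above the upper cut-off after nitrate and 4 below the lower one, where 11.5% and 5.37% of all genes kept were. After ammonium 10 were above and 0 below, where 19.2% and 10.9% of all genes kept were. That 0 of the 15 were members says nothing of this list, since the study chose it on these libraries and members are only 0.47% of the genes kept. The gene of ferredoxin-nitrite reductase (Zm00001d018161), which reduces nitrite to ammonium, was listed at 16.3 RPKM in +NO3-, 16.7 in +NH4+ and 0.820 in -N. The other families searched in the descriptions held no member, with 4 to 17 described genes each in families such as dirigent proteins, WRKY factors and peroxidases. The study chose the described genes on these libraries, mostly from clusters that it describes as answering to 1 ion or to both alike. The absence of members therefore says nothing of these families. The lists cover 1 of the 100 members, and the functions of the other 99 are not given in the sources used here.

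Members were less frequent among strongly expressed genes. By the mean RPKM over the 3 conditions, 24 of 2064 genes between 1 and 2 RPKM were members (1.16%), followed by 0.728% from 2 to 5 RPKM, 0.257% from 5 to 10 and 0.148% from 10 to 20. Of the 7469 genes with a mean of 20 RPKM or more, 2 were members (0.0268%). The ratios of all genes also scattered less at high levels. The distance between the quartiles of the log2 ratio after nitrate was 0.78 for the genes from 1 to 2 RPKM and 0.33 for those of 20 RPKM or more, and after ammonium it was 1.00 and 0.64. The part of this scatter in the membership of weak genes was not tested. A further 35 members were among the 896 genes with a mean under 1 RPKM (3.91%), but a gene of that mean is kept only if its conditions differ enough for one to reach 1 RPKM, so the rule itself raises this share and nothing is read from it.

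Genes of the opposite pattern made up 1.65% of the genes from 1 to 2 RPKM and 0.402% of those of 20 RPKM or more, where 30 of them stood beside the 2 members. Of the members, 11 reached 10 RPKM in some condition, against 86 of the 200 genes of the opposite pattern and 58.8% of all genes kept. The difference between the 2 patterns was not tested.

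**Figure D4:**
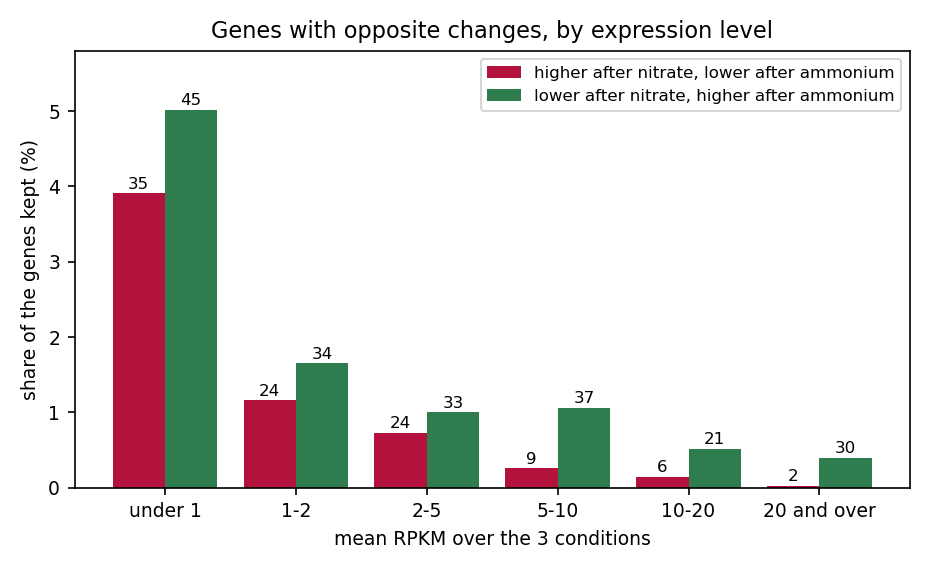
Share of the gene models kept (%) with the pattern of the members (left bars) or the reverse (right bars), by mean RPKM over the 3 conditions, with the number of genes above each bar. The left bars go down from 1.16% between 1 and 2 RPKM to 0.0268% at 20 RPKM or more, and the bars under 1 RPKM (3.91% for the left one) are raised by the minimum of 1 RPKM in one condition.

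Genes that passed the cut-off in 1 of the comparisons alone are given here for their levels only, since the rule asks for different conditions to be high or low in each group. The 942 genes higher after nitrate with ammonium inside the cut-offs had medians of 4.82 RPKM in +NO3-, 2.71 in +NH4+ and 2.49 in -N. The 1869 genes lower after ammonium with nitrate inside the cut-offs had medians of 11.2 RPKM in +NO3-, 6.78 in +NH4+ and 11.7 in -N.

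A direct comparison of the 2 ions shows where the members stand among genes that differ between +NO3- and +NH4+ roots. The rule implies a log2 ratio of nitrate to ammonium above 1.16, and 482 genes, or 2.27% of those kept, reached it. The reverse difference, ammonium over nitrate by as much, was found for 1251 genes (5.88%). In the 482 genes the -N value took every place, with 104 genes in which -N was at or below the ammonium value, 49 in which it was above the nitrate value, and 329 in which it lay between. On a scale from 0 at the ammonium value to 1 at the nitrate value, -N lay between 0 and 0.25 in 65 genes, between 0.25 and 0.5 in 86, between 0.5 and 0.75 in 105 and between 0.75 and 1 in 73. The members, for which -N had to be far enough from both ends, were 5, 41, 54 and 0 of these.

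**Figure D5:**
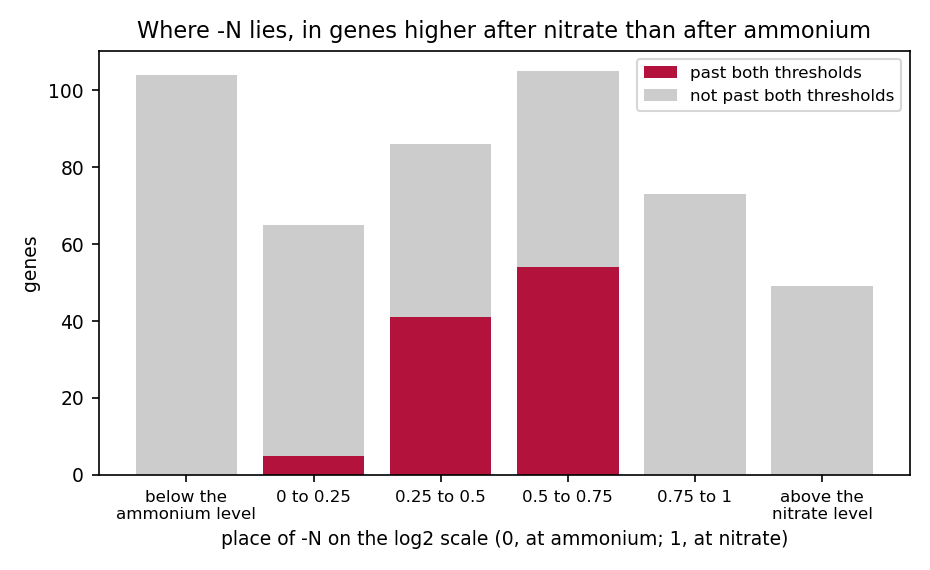
Number of genes by the place of -N between the ammonium value (0) and the nitrate value (1) on the log2 scale, for the 482 genes with a log2 ratio of nitrate to ammonium above 1.16. Bars range from 49 to 105 genes, and the 100 members (dark) fall between 0 and 0.75.

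The limits of the group were drawn through a continuous range of values. Just inside the nitrate cut-off, Zm00001d045138 had 4.07 RPKM in +NO3-, 1.63 in +NH4+ and 2.71 in -N, with a log2 ratio of 0.59, and it was followed by Zm00001d020794 (0.59) and Zm00001d004929 (0.61). Just outside it, Zm00001d007064 (0.57), Zm00001d001563 (0.57) and Zm00001d022479 (0.56) were below the ammonium cut-off but missed the nitrate one. Zm00001d001563 had 110.7 RPKM in +NO3-, 39.7 in +NH4+ and 74.6 in -N, which was more than any member. At the ammonium cut-off, Zm00001d042765 (-0.59), Zm00001d023592 (-0.60) and Zm00001d020794 (-0.61) were just inside, and Zm00001d034745, Zm00001d000617 and Zm00001d049786 (-0.58 each after rounding) were just outside. Of all members, 32 lay within 0.1 of one of the cut-offs on the log2 scale, 50 were between 0.1 and 0.5 from the nearer cut-off, and 18 were farther inside, with a median distance of 0.17.

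Members that keep both ratios past the cut-offs when 0.1 or 1 RPKM is added to each value, and when the columns are brought to the same median ratio, total or upper quartile, numbered 24. Adding 1 RPKM by itself also left 24 members, so the other settings removed none of these. That setting shrinks the ratios of weak genes most, so the level of the members left follows in part from it. Of the 24, 21 reached 5 RPKM in some condition, and 10 had both log2 ratios beyond 1. They include 6 of the 10 members of highest RPKM and 5 of the 10 of widest span. Others among them are Zm00001d026956, with 9.91 RPKM in +NO3-, 2.01 in +NH4+ and 4.77 in -N, and Zm00001d051156, with 8.29 RPKM in +NO3-, 1.83 in +NH4+ and 3.53 in -N. Zm00001d045022, Zm00001d043709 and Zm00001d004443 are not. Their low +NH4+ and -N values are levelled by a pseudocount, for Zm00001d043709 already by 0.1 RPKM (log2 ratio after ammonium of -0.55) and for the others by 1 RPKM.

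In the numbering of the gene models, 3 pairs of members had identifier numbers within 10 of each other, and in 1 pair the numbers followed directly. Such pairs were not counted among all genes kept, so neither scatter nor clustering of the members is read from this. Zm00001d048960 had 1.00 RPKM in +NO3-, 0.320 in +NH4+ and 0.620 in -N, and Zm00001d048961 had 3.83 RPKM in +NO3-, 1.55 in +NH4+ and 2.51 in -N. The log2 ratios of this pair were 0.69 and -0.95 for the first gene and 0.61 and -0.70 for the next. The rule sets the direction and least size of these ratios, so nothing is read from their likeness.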

How the data were processed

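Polyadenylated RNA was sequenced by the authors in 9 libraries. Per the methods and the submitters' processing notes, reads were trimmed with Trimmomatic 0.33, mapped with TopHat2 2.0.13 to B73 RefGen_v4, filtered on mapping quality, and quantified with Cuffdiff of Cufflinks 2.2.1 with quartile normalization and correction for reads of several places. The deposited values are the authors' RPKM, 1 per gene and condition over 3 replicates. The multi-read correction divides reads among similar genes, so members of gene families are less certain. Columns of the table outside the 3 conditions numbered 0, and the results of the authors' tests were not used to choose or count genes here.

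Log2 ratios were computed without a pseudocount in Python 3.11.15 with numpy 2.4.6, pandas 2.3.3 and matplotlib 3.10.9. No test across genes was run, since there is no value per replicate. The counting was checked on simulated data, with planted log2 changes of 1 in both directions and far less scatter than in these data. That checks the counting step only and says nothing of the number of members. The members and gene lists were chosen with earlier results of these data known. Named are the 10 members of highest RPKM, the 10 of widest difference between the 2 log2 ratios, described members, the 3 genes nearest each cut-off on either side, and members next to each other by number; Zm00001d000660, Zm00001d026956, Zm00001d051156, Zm00001d045043, Zm00001d046357, Zm00001d047775, Zm00001d018161 and Zm00001d018415 were added after their values were seen. Of the 100 members, 0 matched the RefSeq gene table, so names came from the study's gene lists, and positions from the locus column of its Cuffdiff output, which covers 2 members in the copy used here. Alternatives were pseudocounts of 0.1 and 1, no minimum, a minimum of 5 RPKM, a threshold of 1, all identifiers, and 3 scalings.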

Additional observations from a re-analysis of the deposited data

How the results depend on the processing

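The number of members stayed within 1.5 times of 100 with a pseudocount of 0.1 (88), with all identifiers (127) and with the scalings to the same median ratio (99), total (106) and upper quartile (124), and 94, 93 and 99 of the 100 members stayed in under these scalings. It was 24 with a pseudocount of 1, 330 with no minimum RPKM, 31 with a minimum of 5 RPKM and 25 with a threshold of 1. The opposite pattern, 200 genes, was found for 85, 398, 113 and 66 genes in the same order. For the 20 members named for their level, span or description, 190 of 200 ratios recomputed with a pseudocount or a scaling moved at the second decimal, and none could change sign by the way these settings are built. No paired analysis was possible because each condition has 1 pooled column, and for the same reason no replicate could be left out. Searches of promoter motifs on one strand or upstream of the start alone were not run, since no sequences were used here, and no other source of names was set against the gene lists of the study.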

Other observations

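Identifiers other than Zm00001d gene models met the same cut-offs more often, and they were not counted among the 100 members. Of 327 such identifiers kept, 27 had the pattern of the members (8.26%), against 0.47% of the gene models kept. They were 24 of 261 ENSRNA identifiers of non-coding RNAs and 3 of 18 microRNA genes, with 0 of 48 GRMZM5G identifiers of organelle genes. The opposite pattern was found for 204 identifiers of any kind, against 200 gene models. How often the other identifiers passed either cut-off alone was not counted, so the higher share is given as a description. Their lengths were not examined, and RPKM of a short model rests on few read positions. The microRNA gene zma-MIR160b was listed at 13.3 RPKM in +NO3-, 2.36 in +NH4+ and 4.79 in -N. It was followed by zma-MIR169j, with 6.82 RPKM in +NO3-, 0.784 in +NH4+ and 1.99 in -N, and zma-MIR395o, with 1.52 RPKM in +NO3-, 0.230 in +NH4+ and 0.659 in -N. miR160 is known to target auxin response factors, miR169 subunits of the NF-Y transcription factor, and miR395 enzymes and a transporter of sulfate. The highest of the ENSRNA identifiers, ENSRNA049465281, had 547.8 RPKM in +NO3-, 161.4 in +NH4+ and 285.1 in -N. The libraries were prepared from polyadenylated RNA.

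Genes listed at 0 could not be members. Of the gene models with at least 1 RPKM in some condition, 8 were above the cut-off after nitrate and listed at 0 in +NH4+, of which 2 were at 1 RPKM or more in -N. The highest was Zm00001d016571, with 12.5 RPKM in +NO3-, listed at 0 in +NH4+ and at 3.23 in -N. A further 17 gene models were listed at 0 in both +NH4+ and -N and reached up to 16.3 RPKM in +NO3-.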
